A study of Mus musculus with 9 samples.

Results

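The Src family kinases were followed in mouse bone marrow (BM) cells that were sorted and labelled as endothelial cells (ECs). By name, 9 genes were taken from the 46078 genes of the read count table: the kinases Src, Fyn, Lyn, Yes1, Lck, Fgr, Blk and Frk, and Csk, the kinase that restrains them. All cells came from wild type mice of the B6 strain, with no treatment and with no age given in the labels, and were gated as CD45- (no leukocyte antigen), Ter119- (no erythroid antigen) and CD31+ (the platelet and endothelial adhesion molecule). They were then split by Sca-1, a surface antigen encoded by Ly6a, into a Sca-1+ fraction with 4 libraries (here named 7, 13, 15 and 19 after the last number of their label) and a Sca-1- fraction with 5 libraries (8, 10, 14, 16 and 22). The study, which calls these fractions Sca-1high and Sca-1low, treats the former as cells of arterioles and the latter as cells of sinusoids, and the comparison asks which genes differ between them. Library titles also carry tags that the labels do not explain: the tag CD452 is shared by Sca-1+ 13 and Sca-1- 14 and 22, a number by Sca-1+ 15 and Sca-1- 16, and the other libraries have a tag of their own or none. The labels do not say whether each library came from 1 mouse, so p-values measure the spread between these libraries.

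Src family kinases sit on the inner face of the plasma membrane and pass signals from integrins, growth factor receptors and immune receptors to adaptors and enzymes inside the cell. Each is held inactive when a tyrosine in its C-terminal tail is phosphorylated by Csk and binds back to the kinase's own SH2 domain, and phosphatases that remove that phosphate release it. Src, Fyn and Yes1 are found in most tissues, Lyn and Fgr are best known from blood cells, Lck from T cells and Blk from B cells, and Frk is a more distant relative expressed mainly in epithelia. In ECs the kinases act below the VEGF receptors and at cell junctions, and in platelets and megakaryocytes Src, Fyn and Lyn start signaling from the collagen receptor and from integrins.

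The tails are shown first because they are what Csk acts on and what sets the 8 kinases apart from each other at their ends. Each line gives the coding bases from 5 codons before the last tyrosine codon to the codon before the stop, read from the GENCODE M21 annotation on GRCm38, with the last tyrosine codon in capitals.
Src, chr2:157469923-157469958, plus strand: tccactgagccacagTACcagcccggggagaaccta
Fyn, chr10:39563934-39563969, plus strand: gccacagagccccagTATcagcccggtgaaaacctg
Yes1, chr5:32684721-32684756, plus strand: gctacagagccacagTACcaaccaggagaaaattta
Fgr, chr4:133000305-133000340, plus strand: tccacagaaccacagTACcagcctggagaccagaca
Lyn, chr4:3789912-3789941, plus strand: gccacagaagggcagTATcagcagcaaccg
Lck, chr4:129548801-129548830, minus strand: gccacagagggccagTACcagccccagcct
Blk, chr14:63373395-63373424, minus strand: gccacggagggccaaTATgagctgcagccc
Frk, chr10:34608527-34608568, plus strand: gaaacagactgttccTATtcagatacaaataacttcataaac
Src, Fyn, Yes1 and Fgr had 6 codons after this tyrosine, Lyn, Lck and Blk had 4, and Frk had 8. Csk itself has no such regulatory tyrosine, and its last tyrosine codon lay 34 codons before the end. Each stretch lay within 1 exon, in the last coding part of the gene. Among the transcripts of the 9 genes the longest run of identical bases was 23 bases, reached by Src with Fgr, Src with Blk and Lyn with Lck.

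Upstream sequence is shown for the 3 kinases whose levels differed most in fold between the fractions. Each line gives the 250 bases before an annotated start site, from RefSeq on GRCm38.p6, with matches to the letters searched in capitals.
Src, chr2:157424043-157424292, plus strand: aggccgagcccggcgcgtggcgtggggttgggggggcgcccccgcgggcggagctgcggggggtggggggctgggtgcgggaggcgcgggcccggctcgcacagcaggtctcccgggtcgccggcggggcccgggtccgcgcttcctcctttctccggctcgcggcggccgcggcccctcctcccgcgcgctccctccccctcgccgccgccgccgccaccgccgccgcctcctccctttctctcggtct
Yes1, chr5:32610921-32611170, plus strand: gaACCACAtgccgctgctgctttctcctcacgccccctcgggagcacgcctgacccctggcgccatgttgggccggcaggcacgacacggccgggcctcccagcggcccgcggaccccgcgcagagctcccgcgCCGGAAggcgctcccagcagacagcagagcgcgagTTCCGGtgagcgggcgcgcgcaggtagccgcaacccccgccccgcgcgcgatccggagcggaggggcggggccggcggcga
Lck, upstream start site, chr4:129573642-129573891, minus strand: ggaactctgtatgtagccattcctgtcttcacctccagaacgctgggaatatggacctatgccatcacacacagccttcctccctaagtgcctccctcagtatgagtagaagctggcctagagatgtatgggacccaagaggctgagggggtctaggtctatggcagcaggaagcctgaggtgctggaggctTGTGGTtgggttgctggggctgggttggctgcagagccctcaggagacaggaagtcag
Lck, downstream start site, chr4:129558373-129558622, minus strand: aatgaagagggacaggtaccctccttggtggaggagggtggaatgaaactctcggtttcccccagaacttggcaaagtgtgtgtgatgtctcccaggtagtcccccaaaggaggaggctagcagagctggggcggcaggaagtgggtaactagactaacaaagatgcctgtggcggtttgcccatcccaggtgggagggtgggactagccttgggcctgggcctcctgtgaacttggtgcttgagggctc
The letters searched, on both strands, were AGATAA for GATA factors, CCGGAA for ETS factors and TGTGGT for RUNX factors. They occurred in 9.99%, 12% and 14% of 32851 windows of the same length. The Yes1 window held CCGGAA 2 times and TGTGGT 1 time, with no overlap between them, the window of the upstream Lck start held TGTGGT 1 time, and the Src window and the window of the downstream Lck start held none of the 3. The Src and Yes1 windows were rich in G and C (82.8% and 77.2%) and in CpG pairs (40 and 37), whereas both Lck windows (56.4% and 58%, with 1 and 3 CpG pairs) were nearer the median G and C content of all windows, 52.4%, and below their median of 6 CpG pairs. A match is a description of these letters only, and the gene counts do not tell which start site of Lck was used.

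The libraries held 21581653 to 25959818 counts each. No library was a copy of another within its fraction, the chi-square of the counts of any pair being at least 36.8 times its degrees of freedom. Levels are CPM, the standard read count unit corrected for depth, on library sizes scaled by TMM, a method that sets libraries to a common level for most genes, with factors of 1.12 to 1.22 in Sca-1+ and 0.581 to 1.16 in Sca-1- libraries. A count of 3, taken as the floor, was worth 0.0996 to 0.21 CPM, and floors cover counting error only, since the libraries carry no molecular identifiers. Ly6a followed the sort, at 874 to 1306 CPM in Sca-1+ and 0.24 to 1.49 CPM in Sca-1- libraries. The markers of the labelled cell type did not hold in equal measure: 10 endothelial markers summed to 5600 to 7430 CPM in Sca-1+ but 642 to 2570 CPM in Sca-1- libraries, while 10 megakaryocyte markers summed to 23.8 to 71.8 CPM in Sca-1+ and 22400 to 89700 CPM in Sca-1- libraries. Of these lists, 9 endothelial markers were higher and all 10 megakaryocyte markers lower in Sca-1+, and the fractions are therefore named by their sort alone. CD31 is also carried by megakaryocytes and platelets. In bulk RNA, fewer cells of a type and less RNA per cell cannot be told apart. The running numbers in the labels, 30016 to 30019 for Sca-1+ and 30108 to 30115 for Sca-1-, do not overlap, so handling in 2 series and the sort cannot be told apart.

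**Figure D1:**
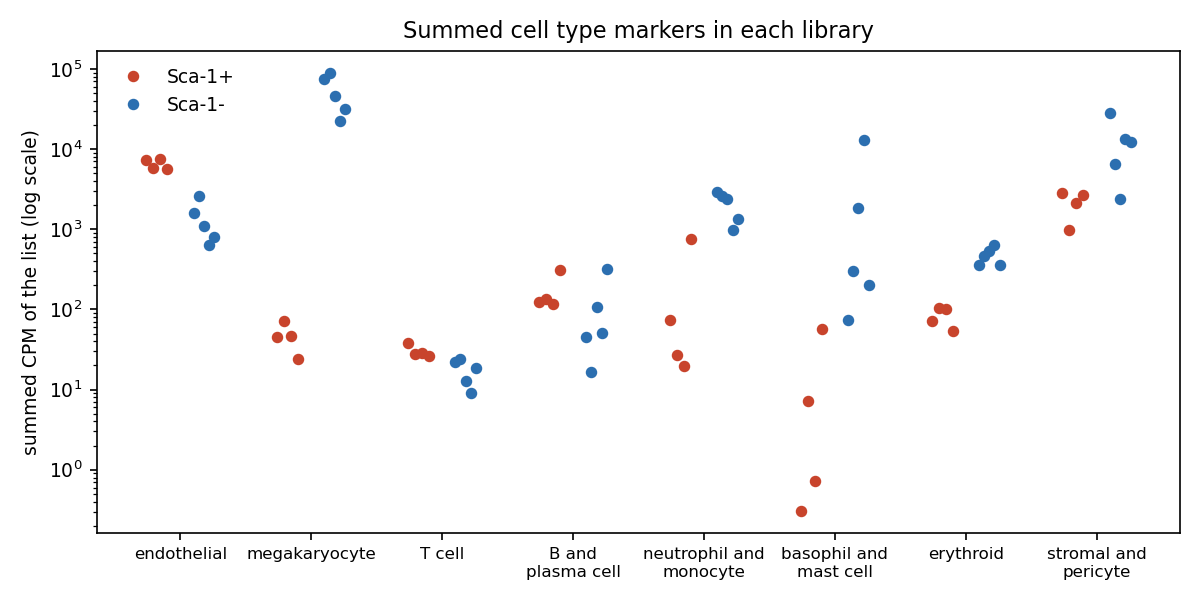
Summed CPM (log scale) of 8 lists of cell type markers, 1 point per library, Sca-1+ in red and Sca-1- in blue. The megakaryocyte sums are 23.8 to 71.8 CPM in Sca-1+ and 22400 to 89700 CPM in Sca-1- libraries, and the endothelial sums lie 5600 to 7430 against 642 to 2570.

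Src, Lyn and Csk were lower in Sca-1+ than in Sca-1- cells, and Yes1 and Lck were higher. Fyn, Fgr and Frk overlapped between the fractions and did not pass the test, and Blk had too few counts to be tested. Thus 5 of the 8 members tested differed by edgeR's quasi-likelihood test (adjusted p below the threshold of 0.05), against 44.8% of all 15937 genes tested. In the higher direction there were 2 members against 23.3% of all genes, and in the lower direction 3 against 21.4%. For each of these 5 the ranges of the fractions were apart, which was so for 24.8% of all genes in the higher and 18.8% in the lower direction. The members' counts are read against these shares, and nothing particular to the family is drawn from them.

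**Figure D2:**
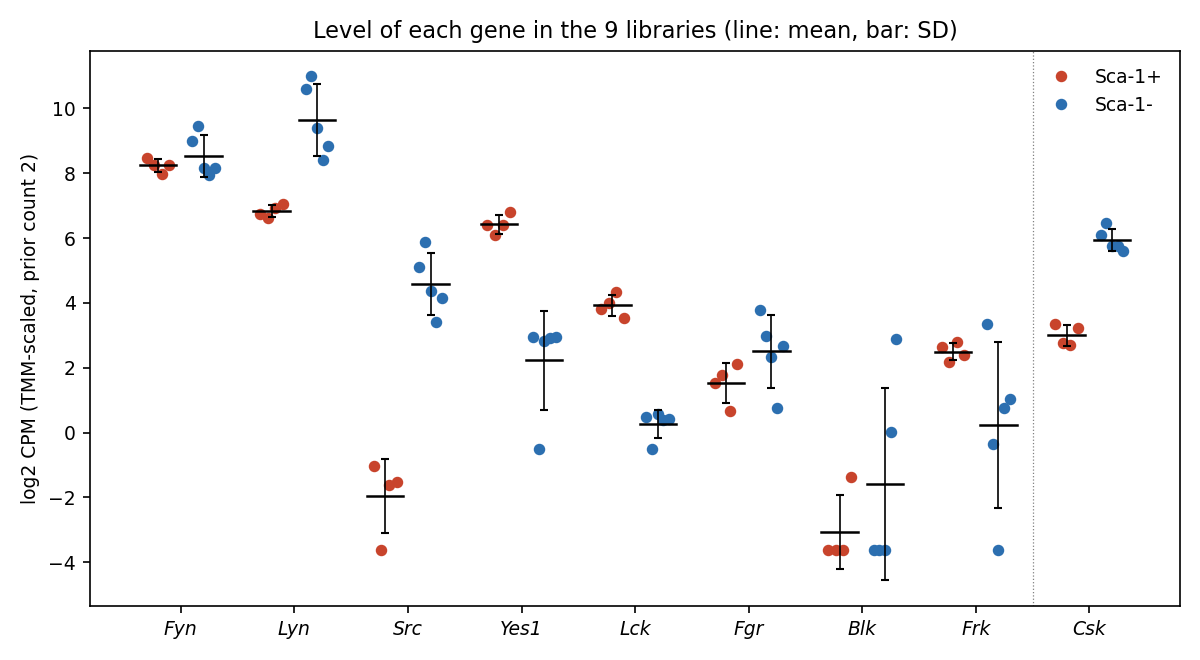
Log2 CPM of the 8 kinases and of Csk (right of the dotted line) in each library, with the mean as a line and the SD as a bar (n = 4 Sca-1+ in red, n = 5 Sca-1- in blue, ordered by label number). The fractions are apart for Src, Lyn, Yes1, Lck and Csk and overlap for Fyn, Fgr, Blk and Frk.

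Src, the founding member and a kinase of focal adhesions, was at very few counts in the Sca-1+ libraries. Its gene (ENSMUSG00000027646) spans chr2:157418444-157471862 on the plus strand of GRCm38. Its level there was 0.409, 0, 0.242 and 0.271 CPM in libraries 7, 13, 15 and 19, which were 12, 0, 7 and 7 counts. In Sca-1- libraries 8, 10, 14, 16 and 22 the level was 34.3, 59.1, 20.8, 10.6 and 17.5 CPM, from 320 to 847 counts. Every Sca-1- library lay far above every Sca-1+ library, and library 10 was the highest of all. The mean was 0.23 ± 0.17 CPM (SD, n = 4) in Sca-1+ and 28.5 ± 19.2 CPM (SD, n = 5) in Sca-1- cells, a log2 fold change of -6.92 (SE 0.877, edgeR adjusted p = 0.000194), or 121-fold lower in Sca-1+. The counts of Src in Sca-1+ are too few to fix the size of this fold.

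Lyn, a kinase of blood cells that can both start and dampen receptor signals, was well expressed in both fractions but lower in Sca-1+. The Lyn gene (ENSMUSG00000042228) spans chr4:3678115-3813122 on the plus strand of GRCm38. The 4 Sca-1+ libraries were close together at 106, 98.9, 123 and 132 CPM. The 5 Sca-1- libraries spread from 337 to 2080 CPM, with 1590 in library 8, 2080 in library 10, 675 in library 14, 337 in library 16 and 457 in library 22. The lowest Sca-1- library was thus still above the highest Sca-1+ library. The log2 fold change was -3.16 (SE 0.569, edgeR adjusted p = 0.00138), or 8.94-fold lower, with means of 115 ± 15 CPM and 1027 ± 766 CPM (SD, n = 4 and 5). A long noncoding RNA on the opposite strand, Gm26857, shares 248 exonic bases with Lyn. It was counted separately with 106 to 140 counts in Sca-1+ and 281 to 1094 in Sca-1- libraries. The library kit does not mark strand, so reads of this stretch cannot be assigned to either gene by strand.

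Csk, whose product phosphorylates the tail tyrosine of the kinases above, was lower in Sca-1+ with the smallest SE of the 8 members tested. Csk (ENSMUSG00000032312) spans chr9:57626646-57653631 on the minus strand of GRCm38. Its level was 10.02, 6.67, 6.39 and 9.33 CPM in Sca-1+ libraries 7, 13, 15 and 19. In Sca-1- libraries 8, 10, 14, 16 and 22 it was 68.4, 87.2, 54.2, 53.7 and 48.5 CPM. The fractions were apart, and library 10 was the highest. This was a log2 fold change of -2.94 (SE 0.269, edgeR adjusted p = 3.78e-05), or 7.7-fold lower.

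The levels of Src and Lyn were highest in Sca-1- libraries 8 and 10, where the megakaryocyte sums were also highest (74200 and 89700 CPM, against 22400 to 45900 CPM in the other 3) and the TMM factors lowest (0.671 and 0.581). Per 1000 counts of the megakaryocyte markers, Src was at 0.453 to 0.66 (median 0.474) in the Sca-1- libraries. In the Sca-1+ libraries Src was at 0 to 11.4 (median 7.11), from at most 12 counts of Src. The fractions overlapped only through Sca-1+ library 13, which had no count of Src. On the same scale Lyn was at 14.6 to 23.2 in the Sca-1- and at 1380 to 5530 in the Sca-1+ libraries, and Csk at 0.921 to 2.4 and 93 to 392. The megakaryocyte markers summed to only 23.8 to 71.8 CPM in Sca-1+ libraries. A gene at equal CPM in both fractions thus comes out higher in Sca-1+ on this scale. The part of the megakaryocyte RNA in the differences of Src, Lyn and Csk was not tested.

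Yes1, the close relative of Src that is active at endothelial junctions, went in the direction opposite to Src. Yes1 (ENSMUSG00000014932) spans chr5:32611171-32687057 on the plus strand of GRCm38. Sca-1+ libraries 7, 13, 15 and 19 had 84.4, 68.4, 84.2 and 111 CPM. Sca-1- libraries 8, 14, 16 and 22 had 7.63, 7, 7.44 and 7.66 CPM, and library 10 had 0.628 CPM from 9 counts. The lowest Sca-1+ library was far above the highest Sca-1- library. The log2 fold change was 3.83 (SE 0.554, edgeR adjusted p = 0.0004), or 14.2-fold higher, with means of 86.9 ± 17.5 CPM and 6.07 ± 3.05 CPM (SD, n = 4 and 5). Gm10461, a transcript of unknown class on the opposite strand, shares 635 exonic bases with Yes1. It moved with Yes1, at 84 to 143 counts in Sca-1+ and 0 to 6 counts in Sca-1- libraries. As the kit does not mark strand, reads of the shared stretch cannot be told from reads of Yes1 by strand.

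Lck, the kinase best known from T cell receptor signaling, was also higher in Sca-1+. The Lck gene (ENSMUSG00000000409) spans chr4:129548344-129573641 on the minus strand of GRCm38. Its level was 14, 15.9, 20.1 and 11.7 CPM in Sca-1+ libraries 7, 13, 15 and 19. In Sca-1- libraries 8, 10, 14, 16 and 22 it was 1.32, 0.628, 1.4, 1.23 and 1.26 CPM. The fractions were apart, and the Sca-1- levels rested on few counts (9 in library 10). This gave a log2 fold change of 3.71 (SE 0.345, edgeR adjusted p = 4.07e-05), or 13.1-fold higher. Of 10 T cell markers, 5 (Cd3d, Cd3e, Cd3g, Cd6 and Cd8a) were at 0 in all Sca-1+ libraries. Cd6 and Cd8a were also at 0 in all 5 Sca-1- libraries, and Cd3d, Cd3e and Cd3g in 3, 4 and 4 of them. Cd2 and Cd28 were lower in Sca-1+. Cd4, not tested, had 8, 12, 11 and 7 counts in Sca-1+ libraries 7, 13, 15 and 19, and 14 counts in Sca-1- library 10 only. The list summed to 26.6 to 38.2 CPM in Sca-1+ and 8.97 to 24.2 CPM in Sca-1- libraries. In Sca-1+ that sum came mostly from Cd247, the signaling chain of the T cell receptor and of some Fc receptors, which was at 29.4 ± 4.97 CPM in Sca-1+ and 0.771 ± 0.336 CPM in Sca-1- cells (log2 fold change 5.24, SE 0.376, edgeR adjusted p = 1.58e-05). Mir8119, a microRNA gene inside Lck, shares 25 exonic bases with it on the same strand and had at most 4 counts.

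Yes1 and Lck were set beside the endothelial markers, which moved in the same direction. Esam, an adhesion molecule of ECs and platelets, was the 1 marker of the 10 not called (log2 fold change 0.22, SE 0.54, edgeR adjusted p = 0.764) and held much of the endothelial sum in Sca-1- libraries. Per 1000 counts of all 10 markers, Yes1 was at 11.3 to 19.7 in Sca-1+ and 0.244 to 11.6 in Sca-1- libraries, which overlapped, and Lck at 1.92 to 2.72 and 0.244 to 1.91, which were apart. Without Esam, a choice made after its values were seen, Yes1 was at 13.5 to 25 and 3.21 to 25 and Lck at 2.28 to 3.46 and 3.14 to 4.99, so that both overlapped between the fractions. On this scale Fyn (40.3 to 69.3 against 715 to 3570), Lyn (17.4 to 29.7 against 996 to 10600) and Csk (1.03 to 2.11 against 121 to 446) were higher in every Sca-1- library. So were Src (0 to 0.0668 against 31.4 to 302) and Fgr (0.244 to 0.961 against 4.71 to 43). The 9 markers themselves summed to 4430 to 6220 CPM in Sca-1+ and 195 to 401 CPM in Sca-1- libraries. A gene at equal CPM in both fractions thus comes out higher in Sca-1- on this scale, and nothing is drawn from this order. The part of the endothelial RNA content in the differences of Yes1 and Lck was not tested.

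Fyn, a kinase of T cells, neurons and most other tissues, was the most abundant of the family by counts in Sca-1+ and did not pass the test. The Fyn gene (ENSMUSG00000019843) spans chr10:39368855-39565381 on the plus strand of GRCm38. Sca-1+ libraries 7, 13, 15 and 19 had 358, 304, 250 and 307 CPM. Sca-1- libraries 8, 10, 14, 16 and 22 had 511, 698, 287, 246 and 287 CPM. The fractions overlapped, with libraries 8 and 10 above all others. The log2 fold change was -0.41 (SE 0.34, edgeR adjusted p = 0.344), and it took the other sign (0.14) with library sizes not scaled by TMM, where the median of all genes moved from 0.07 to 0.43.

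Fgr, a kinase of neutrophils and macrophages, was at 2.83, 3.34, 1.52 and 4.26 CPM in Sca-1+ libraries 7, 13, 15 and 19. In Sca-1- libraries 8, 10, 14, 16 and 22 it was 13.8, 7.75, 4.96, 1.59 and 6.31 CPM. Only library 16 brought the Sca-1- fraction into the Sca-1+ range. The log2 fold change was -1.20 (SE 0.578, edgeR adjusted p = 0.117), and without library 16 it was -1.46 (edgeR adjusted p = 0.0297), which passes the threshold. Of 20 alternative fits, this was the only 1 that called Fgr. The 12 neutrophil and monocyte markers summed to 19.5 to 759 CPM in Sca-1+ and 974 to 2890 CPM in Sca-1- libraries, lowest in library 16 among the Sca-1- libraries and highest in library 19 among the Sca-1+ libraries, as was Fgr in both. In Sca-1- libraries that sum was mostly Lyz2 (772 to 2436 CPM). Ctsg and Itgam were instead highest in library 16, with 1551 and 328 counts. Of 11 of these markers tested, 3 were lower in Sca-1+ and 8 were not called. The part of neutrophils and monocytes in the Fgr counts was not tested.

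Frk was at 6.10, 4.43, 6.91 and 5.19 CPM in Sca-1+ libraries 7, 13, 15 and 19. In Sca-1- libraries 8, 10, 14, 16 and 22 it was 10.2, 0.698, 0, 1.63 and 2 CPM. The Sca-1+ libraries were close to each other, and 4 of the 5 Sca-1- libraries lay below them with library 8 above them. The log2 fold change was 0.97 (SE 1.06, edgeR adjusted p = 0.482), and without library 8 it was 2.30, still not past the threshold.

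Blk, the B cell member, had no count in Sca-1+ libraries 7, 13 and 15 or in Sca-1- libraries 8, 10 and 14. It had 8 counts in Sca-1+ library 19, and 28 and 180 counts in Sca-1- libraries 16 and 22. B and plasma cell markers were highest in the same libraries 19 (307 CPM) and 22 (321 CPM) of each fraction. In library 19 the immunoglobulin joining chain gene Jchain had 940 counts against 4 to 25 in the other Sca-1+ libraries. Ms4a1 and Cd22, surface antigens of B cells, were at 0 in every Sca-1+ library. The part of such cells in the Blk counts was not tested.

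**Figure D3:**
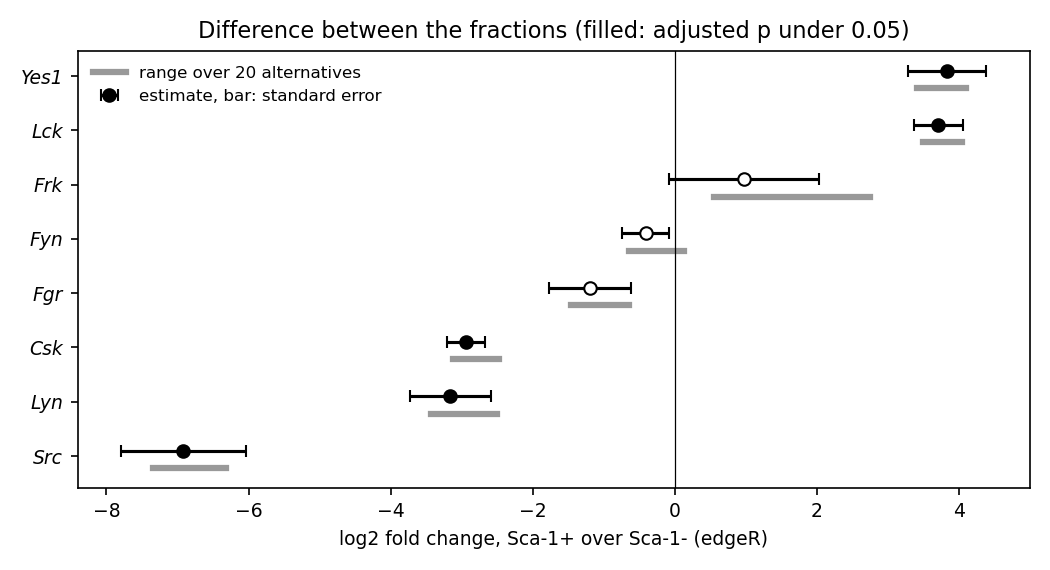
Log2 fold change of the 8 members tested, Sca-1+ over Sca-1-, with its standard error (black, filled where the adjusted p was under 0.05) and the range over the other processing choices tried (grey). Src lies farthest left at -6.92, Yes1 and Lck are near 4 and the open points of Fyn, Fgr and Frk are the members not called.

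Between genes, levels were compared as mean CPM per kb of exon. In Sca-1+ the order was Fyn (69.8 ± 10.1), Lyn (28.2 ± 3.68), Yes1 (11.6 ± 2.33), Lck (5.26 ± 1.22), Csk (2.17 ± 0.493), Frk (1.08 ± 0.205), Fgr (0.773 ± 0.296), Src (0.0527 ± 0.0389) and Blk (0.0287 ± 0.0574), as SD with n = 4. Each level lay apart from the next in its range over libraries, except Frk from Fgr and Src from Blk. In Sca-1- the order was Lyn (252 ± 188), Fyn (93 ± 44.4), Csk (16.7 ± 4.2), Src (6.51 ± 4.39), Fgr (1.78 ± 1.16), Yes1 (0.808 ± 0.407), Blk (0.612 ± 1.19), Frk (0.551 ± 0.786) and Lck (0.399 ± 0.105), as SD with n = 5. There only Fyn and Csk were apart, and all other neighbours overlapped.

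The make-up of the family, which does not depend on the scaling between libraries, was a different one in each fraction. As a share of the 8 kinases' counts per kb, Fyn held 65, 63.2, 53.4 and 56.9% in Sca-1+ libraries 7, 13, 15 and 19 and 22.4 to 39.1% in the Sca-1- libraries. Lyn held 20.7, 22, 28.1 and 26.1% in the same Sca-1+ libraries and 57.5 to 74.7% in the Sca-1- libraries. Fyn was the leading kinase in every Sca-1+ library and Lyn in every Sca-1- library. Yes1 made up 9.88 ± 1.63% in Sca-1+ and 0.365 ± 0.269% in Sca-1-, Lck 4.58 ± 1.4% and 0.168 ± 0.106%, and Frk 0.927 ± 0.209% and 0.161 ± 0.154% (SD, n = 4 and 5). Src went from 0.044 ± 0.0313% to 1.86 ± 0.253%. These shares did not overlap between the fractions, whereas those of Fgr and Blk did.

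**Figure D4:**
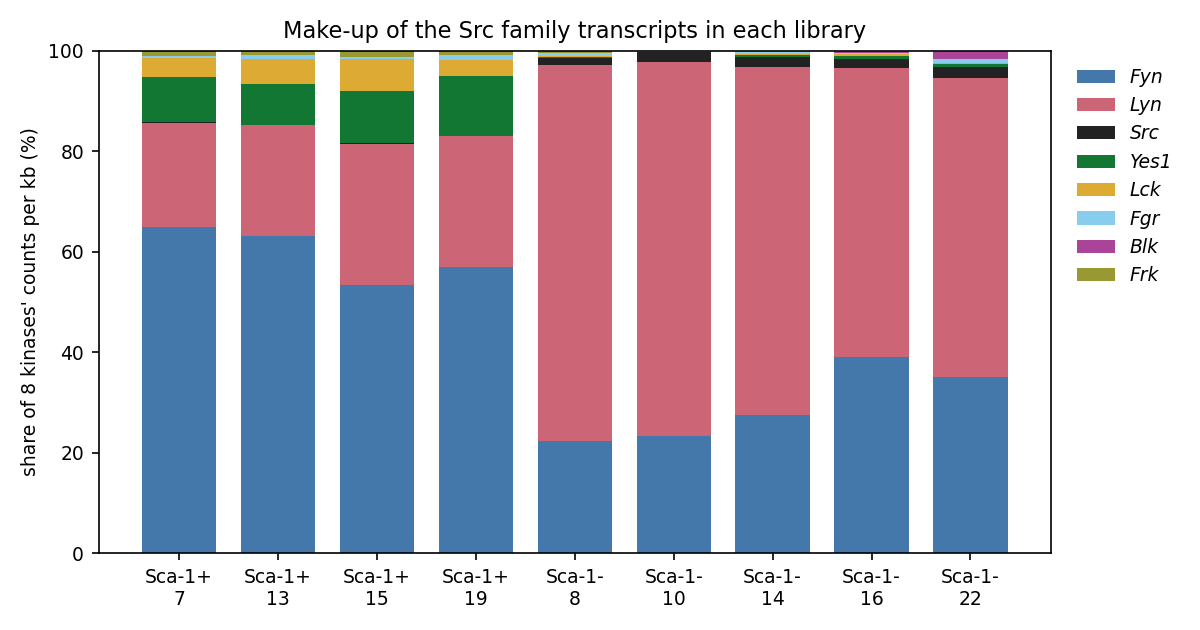
Share of each kinase in the counts per kb of the 8 Src family kinases, 1 stacked bar per library, with the 4 Sca-1+ libraries at left and the 5 Sca-1- libraries at right. Fyn takes 53.4 to 65% of the Sca-1+ bars, and Lyn takes 57.5 to 74.7% of the Sca-1- bars.

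Relative to Csk, the 8 kinases together stood higher in Sca-1+: the ratio of their summed counts per kb to that of Csk was 55.3 (range 47 to 62.8) in Sca-1+ and 19.8 (10 to 29.4) in Sca-1- libraries. Taken singly, Fyn over Csk was 32.8 ± 4.66 in Sca-1+ and 5.36 ± 1.24 in Sca-1-, while Src over Csk was 0.023 ± 0.0159 and 0.363 ± 0.153, both apart (SD, n = 4 and 5). Lyn over Csk was 13.5 ± 3.26 and 13.8 ± 7.39 and overlapped. Lyn over Fyn was 0.413 in Sca-1+ and 2.44 in Sca-1- cells on average, and Yes1 over Lyn was 0.408 and 0.00589, each without overlap. These are ratios of transcripts, given as a description with no test.

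The pattern of Src over the 9 libraries was most like those of Pde5a, a phosphodiesterase that breaks down cyclic GMP, and of Syk, a kinase activated below immune and collagen receptors (Pearson r of log2 CPM = 0.998 for both). Lyn was closest to Plekho2 (r = 0.999) and Rap1a (0.998), a small GTPase of integrin activation, and Csk to Ly6g6f (0.998) and Fyb (0.997), an adaptor of T cells and platelets. Yes1 was closest to Ptprb, the phosphatase of the endothelial cadherin complex, and Sox7, an endothelial transcription factor (0.998 each). Fyn was closest to Suv420h1 (0.974), a histone methyltransferase, and 2310047M10Rik (0.97). The points share 2 groups, and many genes were as close: among the 9866 genes searched, 600 correlated with Src, 772 with Lyn, 640 with Csk and 388 with Yes1 at r over 0.95, but 9 with Fyn.

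Around the kinases, 4 lists of genes that act with them were described. Of 21 regulators tested, 4 were higher in Sca-1+ and 14 lower, with a median log2 fold change of -3.23, beside 0.07 over all genes tested. For each of the 4 lists the counts are read against the shares over all genes, 23.3% higher and 21.4% lower, and nothing particular to a list is drawn from them. The genes named are the leading ones among those with an average log2 CPM of 3 or more. Matk, a kinase related to Csk, was lower (edgeR adjusted p = 5.18e-05), with 4, 0, 0 and 0 counts in Sca-1+ libraries 7, 13, 15 and 19 and 212 to 1915 counts in Sca-1- libraries, too few in Sca-1+ to fix the size of the fold. Also lower were the docking protein Dok2 (log2 fold change -8.67, SE 0.392, edgeR adjusted p = 3.32e-06), and the phosphatases Ptprj (-6.81) and Ptpn22 (-5.59). Higher were Cav1, the coat protein of caveolae (4.12, SE 0.52, edgeR adjusted p = 0.00019), the ubiquitin ligase Cblb (2.44), and Ptpra, a phosphatase that can free the tail tyrosine (0.75, SE 0.164, edgeR adjusted p = 0.00408). Cav1 was at 1509 to 3622 CPM in Sca-1+ and 33.5 to 217 CPM in Sca-1- libraries. Ptprc, which encodes the leukocyte antigen CD45 that the sort gated out and that also acts on the tail, was at 0 to 2.56 CPM in Sca-1+ and 17.2 to 47.8 CPM in Sca-1- libraries (log2 fold change -5.10, SE 1.23, edgeR adjusted p = 0.00691).

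Of 11 related tyrosine kinases tested, 2 were higher and 5 lower in Sca-1+ (all genes: 23.3% and 21.4%), with a median of -1.68. Those that fell included kinases best known from blood cells: Btk (log2 fold change -7.75), Syk (-6.73), Tec (-6.06) and Ptk2b (-5.44) all had edgeR adjusted p at or under 0.000226. Syk, which works next to the Src family at immune receptors, was at 0.749 to 3.44 CPM in Sca-1+ and 107 to 457 CPM in Sca-1- libraries. Bmx, a Tec kinase of arterial endothelium, was higher (3.0, SE 0.873, edgeR adjusted p = 0.0178), with 31.2 to 57.9 CPM in Sca-1+ and 0.12 to 9.8 CPM in Sca-1- libraries. It lost its call with libraries 19 and 22 left out (edgeR adjusted p = 0.0684) and in both fits on 6 libraries. Srms, a relative of Frk named here after its values were seen, had 274, 256, 160 and 353 counts in Sca-1+ libraries 7, 13, 15 and 19 and none in any Sca-1- library, at least 63-fold higher against 3 counts per library.

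All 28 substrates and adaptors were tested, with 6 higher and 16 lower in Sca-1+ (all genes: 23.3% and 21.4%) and a median of -1.75. Named by that rule among those lower were the exchange factor Vav1 (log2 fold change -9.60, SE 0.711, edgeR adjusted p = 1.67e-05) and the adaptors Lat (-9.57), Fyb (-8.91) and Lat2 (-5.73), which assemble complexes below immune and collagen receptors. Vav1 had only 3 to 16 counts in the Sca-1+ libraries, too few to fix the size of its fold. Lat was at 0.349 to 0.818 CPM in Sca-1+ and 330 to 695 CPM in Sca-1- libraries. Named among those higher were the adhesion scaffold Bcar1 (3.74, SE 0.455, edgeR adjusted p = 0.000156) and its relative Nedd9 (3.49), the junctional catenin Ctnnd1 (2.38) and the phospholipase Plcg1 (2.10). Bcar1, the main scaffold of Src at focal adhesions, was at 88.2 to 124 CPM in Sca-1+ and 1.82 to 12.5 CPM in Sca-1- libraries.

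Of 21 receptors that signal through the family, 7 were higher and 8 lower in Sca-1+ (all genes: 23.3% and 21.4%), with a median of -0.21. Receptors of platelets and megakaryocytes fell, namely the collagen receptor chain Gp6 (log2 fold change -11.56) and the integrin chain Itga2b (-10.16), with edgeR adjusted p at or under 4.63e-05. Gp6 had 1, 11, 5 and 0 counts in Sca-1+ libraries 7, 13, 15 and 19, too few to fix the size of its fold. These lists and the megakaryocyte markers share members. The scavenger receptor Cd36 (7.31, SE 0.9, edgeR adjusted p = 0.000166) was the highest in fold, and the angiogenic receptors Flt1 (5.92), Tek (4.5) and Epha2 (4.23) were also higher in Sca-1+. Flt1, a VEGF receptor, was at 427 to 687 CPM in Sca-1+ and 7.04 to 9.91 CPM in Sca-1- libraries.

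**Figure D5:**
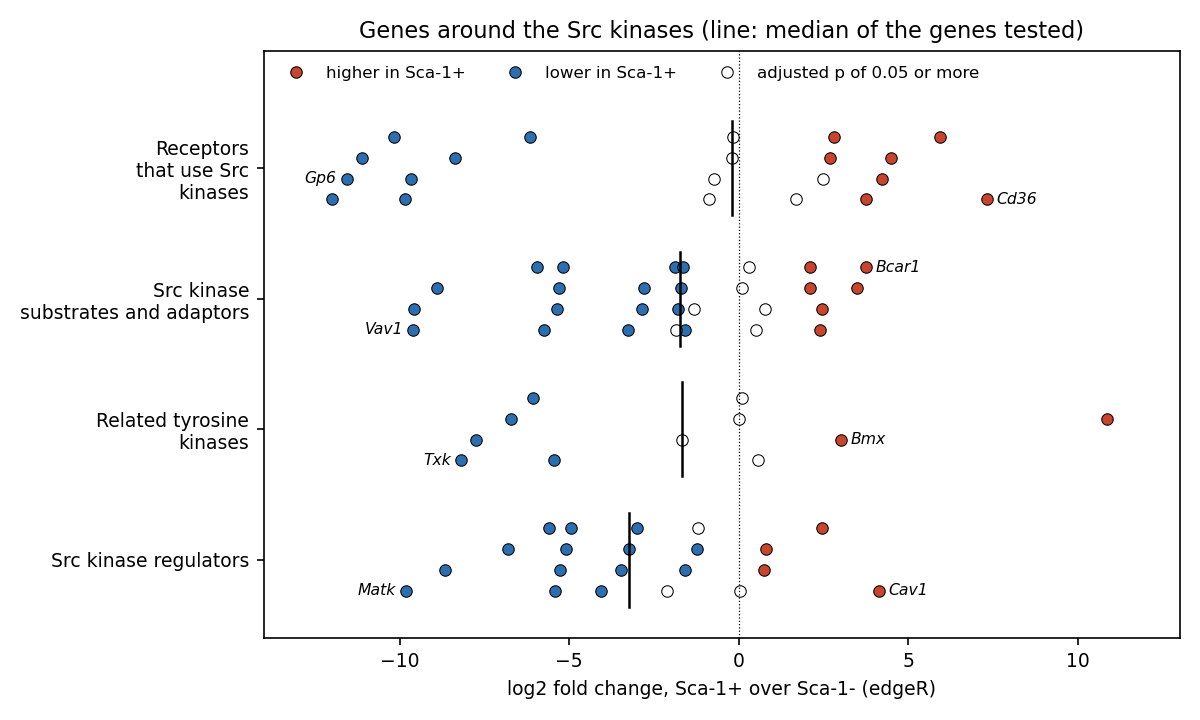
Log2 fold change, Sca-1+ over Sca-1-, of each gene tested in 4 lists around the Src kinases (red higher, blue lower, open adjusted p of 0.05 or more), with the median of each list as a line and the outermost genes with counts in both fractions named. The medians are -3.23, -1.68, -1.75 and -0.21 from bottom to top, and fitted values of genes at 0 in 1 fraction, such as Srms, are no bounds.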

How the data were processed

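RNA-seq libraries of BM cells sorted and labelled as ECs were analysed. Per the labels, RNA (2 ng) was made into libraries with a SMART-Seq v4 low input kit, which does not mark strand. The authors deposited 1 table of unnormalized read counts per gene, made with STAR, featureCounts and mm10 per the submitters' processing notes, with versions, annotation and strand setting not given in the sources used here. Of 46078 gene identifiers, 45229 were in GENCODE M21, used for positions and exon lengths.

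Counts were filtered with filterByExpr (minimum count 10, minimum total 15) and tested two-sided in edgeR 4.0.16 (R 4.3.3) with TMM and the quasi-likelihood F-test over all 9 libraries, with Benjamini-Hochberg adjustment over 15937 genes and a threshold of 0.05. Log2 CPM used a prior count of 2. The script was tested on simulated data. DESeq2 1.42.0 and limma 3.58.1 were alternatives. Members and gene lists were chosen with earlier results of these data known. Genes were named by a rule: all members, and per list and direction up to 4 called genes by fold with fractions apart and an average log2 CPM of 3 or more, plus the 2 nearest genes of each member at that level; exceptions are stated. The matched promoter table held 7 of the 9 members, without Lyn and Blk. Sums of the lists of erythroid markers (54.1 to 104 CPM in Sca-1+, 353 to 637 in Sca-1-), stromal and pericyte markers (977 to 2830 and 2370 to 28500) and basophil and mast cell markers (0.307 to 57.4 and 73.9 to 13100) were not read beside a member. The stromal and pericyte sum in Sca-1- came mostly from Col1a1 (means of 165 CPM in Sca-1+ and 12160 CPM in Sca-1-). Of the 10 markers in that list, 5 were higher in Sca-1+ and 1 lower, with a median log2 fold change of 2.2. Some genes that the rule names are not reported here.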

Additional observations from a re-analysis of the deposited data

Results flagged for a closer look

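Among 18 groups of libraries (9 genes in each fraction) 3 held a library far from the others, by the gap to its neighbour relative to the whole range, with a limit that is set so that chance passes about 1 in 20 groups. Yes1 was at a log2 CPM of -0.50 in Sca-1- library 10 (9 counts), against 2.82 to 2.95 in the other Sca-1- libraries. Lck was at -0.50 in the same library (9 counts), against 0.39 to 0.57. The endothelial markers other than Esam summed to 195 CPM in that library and to 280 to 401 CPM in the other Sca-1- libraries. Blk was at -1.36 in Sca-1+ library 19 (8 counts), against -3.63 (no count) in the other Sca-1+ libraries, and with the others all at 0 any count gives the largest gap possible.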

How the results depend on the processing

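Under 20 alternatives (other normalizations and tools, no filter, robust dispersions, blocks, 1 library left out in turn, and libraries 19 and 22 left out, the last chosen after seeing the data) Src, Lyn, Csk, Yes1 and Lck kept their direction and their call. Their log2 fold changes ranged from -7.35 to -6.32, -3.43 to -2.51, -3.12 to -2.48, 3.42 to 4.10 and 3.50 to 4.05. The labels share no replicate numbers between the fractions, though libraries 15 and 16 share a number in their titles, and with these as a block 5 members were called, as without it. With consecutive label numbers as a replicate block (6 libraries), 2265 genes were higher and 2075 lower. The same 6 libraries with no block gave 2768 and 2592, and the main fit on 9 libraries gave 3721 and 3416. No member's call changed in either fit on 6 libraries. The deviations of these consecutive libraries correlated at 0.147, 0.148 and 0.042, against -0.191 to 0.065 for the other combinations of a Sca-1+ and a Sca-1- library. The values of 0.147 and 0.148 were the highest of all, so the correlations do not speak against pairing. The labels state no pairing, and the main fit therefore used none. Higher related tyrosine kinases numbered 1 in place of 2 in the block fit, in the same 6 libraries with no block, and without libraries 19 and 22, all with fewer samples, and Bmx was the gene lost in each. Leaving out 1 library gave 5 to 6 members called, 3098 to 3708 genes higher and 2859 to 3577 lower. Of 62 called list genes, 9 lost the call in at least 1 alternative and 0 changed sign. Ptpra did so in the block fit (edgeR adjusted p = 0.0841). Without division by exon length, the share of Yes1 was 16.3% and 0.655% and that of Lck 2.96% in Sca-1+. Depth limits Src in Sca-1+ and Lck in Sca-1-, both at few counts.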

Other observations

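Zap70, the kinase that follows Lck at the T cell receptor, was too low to be tested, at 0.496 CPM on average in Sca-1+ and 0.0244 CPM in Sca-1- libraries. Sca-1- library 16 had the highest basophil and mast cell marker sum, 13100 CPM against 73.9 to 1840 CPM in the other Sca-1- libraries. Ptk6, like Srms a relative of Frk, had 19, 50, 1 and 72 counts in Sca-1+ libraries 7, 13, 15 and 19 and none in the Sca-1- libraries, and was not tested.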
